A study of Homo sapiens with 6 samples.

Results

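The 10 genes described here are ones whose transcripts follow signalling through the kinase ERK, measured in HCT-8 cells after low-dose 5-fluorouracil (5-FU). They are the PEA3-group ETS factors ETV1, ETV4 and ETV5, the ETS factors ETS1 and ETS2, the Sprouty inhibitors SPRY2 and SPRY4, the phosphatases DUSP4 and DUSP6, and PHLDA1. They were taken by gene name from the deposited count table, which gave all 10 members among 58735 genes, and each passed the low-count filter that left 19771 genes to test. HCT-8 is a human colorectal adenocarcinoma line. Of the 6 libraries, 3 came from cells given 5-FU, a uracil analogue that inhibits thymidylate synthase and enters RNA and DNA, at the concentration that inhibits 10% (IC10), which the labels relate to continuous infusion in the clinic. The other 3 came from cells labelled as having no treatment, with no vehicle named, and all 6 were grown as a monolayer in RPMI-1640 with serum. No molar dose or time of exposure is stated in the labels. Whether the libraries of a group stem from separate cultures is not stated either, so the p-values cover the spread among these libraries, which may be technical.

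ERK is the last kinase of the RAS, RAF and MEK cascade, and in colorectal cells it passes on signals from growth factor receptors. Active ERK phosphorylates transcription factors in the nucleus and relieves the repressor CIC, and the genes that rise in response include ETS factors, which carry the signal further, and inhibitors that damp it. Sprouty proteins act upstream, near RAS and RAF. DUSP6 removes the activating phosphates from ERK in the cytoplasm and DUSP4 acts on MAP kinases in the nucleus, while PHLDA1 is a pleckstrin-homology protein used as a transcript readout of the pathway. These are transcript levels, and ERK activity itself was not measured.

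Total counts were 18459939 to 20613228 in the 5-FU libraries and 21659252 to 23495607 in the control libraries. Mitochondrially encoded genes took 25.5% to 28.5% of counts in 5-FU libraries and 4.66% to 4.88% in control libraries. Epithelial markers were expressed in both groups: the most abundant identity markers were KRT8, a keratin, with 1905 ± 403 CPM in 5-FU libraries and 2828 ± 517 CPM in control libraries, KRT19, another keratin, with 681 ± 145 and 863 ± 185 CPM, and the cadherin CDH1 with 624 ± 83.5 and 560.2 ± 101.6 CPM (SD, n = 3 each, 5-FU value first). Among all tested genes 33.9% were called lower and 36.3% higher, and of the 7 identity markers tested 3 were lower and none was higher. Besides KRT8, whose call was lost in 5 of 17 alternatives, these were the adhesion molecule EPCAM, with 241 ± 28.4 CPM in 5-FU and 465 ± 58.2 CPM in control cells (log2 fold change -0.95, edgeR adjusted p = 0.000138), and the intestinal factor CDX2, with 56.6 ± 4.399 and 125 ± 18.5 CPM (-1.14, edgeR adjusted p = 2.14e-05; SD, n = 3 each), both named after their values were seen. The untested CDX1, another intestinal factor, was near absent, with 4 to 12 counts in 5-FU libraries and 2 to 8 in control libraries. CPM here are counts relative to the library total after TMM scaling. Summed over 12 markers of blood, stromal, endothelial and neural cells, CPM was 45.8 to 79.7 in 5-FU libraries and 25.6 to 31.0 in control libraries. Of the 7 of them tested 3 were higher, against 36.3% of all tested genes. The most abundant of these was COL1A1, a collagen chain, with 42.4 ± 16.1 and 15.2 ± 3.06 CPM (SD, n = 3 each), while the T cell marker CD3E had 0 to 1 counts in any library. The part of these markers and of the mitochondrial share in the changes below was not tested.

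The stretch upstream of a member is shown where RefSeq windows (GRCh38.p14) hold one. CIC is known to repress PEA3-group and feedback genes, and whether it acted on the members here was not tested. Of the 10 members, 6 had such windows, 14 in all, each read over the 250 bases before an annotated transcript start. The searched words were the CIC octamers TGAATGAA, TGAATGGA, TCAATGAA and TCAATGGA, the ETS word CCGGAAGT, the AP-1 word TGANTCA, the cAMP response element TGACGTCA and the CArG box bound by SRF, each on both strands, and only 2 windows held any of them. ETV1 has 6 windows, of which 1, chr7:13991426-13991675 on the minus strand, holds a CIC octamer 125 to 118 bases before the start, in capitals here.
ETV1: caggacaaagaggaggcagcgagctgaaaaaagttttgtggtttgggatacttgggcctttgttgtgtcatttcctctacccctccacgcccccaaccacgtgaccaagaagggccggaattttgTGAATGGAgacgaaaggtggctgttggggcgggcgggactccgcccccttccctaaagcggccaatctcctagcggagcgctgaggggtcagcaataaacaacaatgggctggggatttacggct
DUSP6 has a CIC octamer on the other strand, 24 to 17 bases before a start, within chr12:89352507-89352536 on the minus strand, which GENCODE counts as exonic because of a longer transcript.
DUSP6: cggagaatgtaTCCATTGAgacgctcgctg
A CIC octamer of any of the 4 spellings occurs in 3.18% of the 35116 windows of all genes, the ETS word in 3.42%, the AP-1 word in 6.57%, the cAMP response element in 1.65% and the CArG box in 1.16%. ETS2, which had the largest decrease among the members, has 2 windows and none of those words in either. The one farther upstream, chr21:38804933-38805182 on the plus strand, is printed because none of it is annotated as exonic. Capitals mark the GGAA core of ETS sites on either strand, with 3 matches here and 6 in the other window, a word that 92.7% of all windows hold.
ETS2: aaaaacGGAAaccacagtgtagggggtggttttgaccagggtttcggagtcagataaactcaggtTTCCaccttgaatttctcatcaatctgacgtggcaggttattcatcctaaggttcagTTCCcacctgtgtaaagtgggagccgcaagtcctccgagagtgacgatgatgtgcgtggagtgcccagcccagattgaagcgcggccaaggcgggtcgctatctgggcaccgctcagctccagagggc
The letters describe these windows only and do not show whether CIC acted. Neither ETV1 nor DUSP6, which hold the octamers, was called in the main comparison below, though DUSP6 passed in 2 of 17 alternatives. ETV4, ETV5, ETS1 and DUSP4 had no window and were not searched.

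The members split. ETS2, PHLDA1, ETV4 and ETV5 fell clearly after 5-FU, SPRY2 fell slightly, DUSP4 rose, and ETV1, ETS1, SPRY4 and DUSP6 did not pass the test. In edgeR's quasi-likelihood test over all 19771 genes at an adjusted p under 0.05, 5 of 10 members were lower and 1 was higher. Of all tested genes 33.9% were called lower, 36.3% higher and 70.2% either way, and of the 12749 tested genes whose mean CPM lies in the range of the members 46.3% were called lower and 26.5% higher. The count of called members is therefore near the background, and what follows describes single genes. The median log2 fold change was -0.34 over the members and 0.09 over all tested genes. These medians depend on the filter: with a mean count of at least 50 they were -0.087 and 0.018. In 5 members the 5-FU libraries lay entirely below the control libraries, against 35.9% of all tested genes. In 1 they lay entirely above, against 38.4%, and 74.3% of all tested genes had ranges that did not overlap. With upper-quartile scaling, which lifts the median of all genes to 0.45, the member median was 0.021 and all tested genes split into 9602 higher and 4614 lower, against 7171 and 6706 with TMM.

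**Figure D1:**
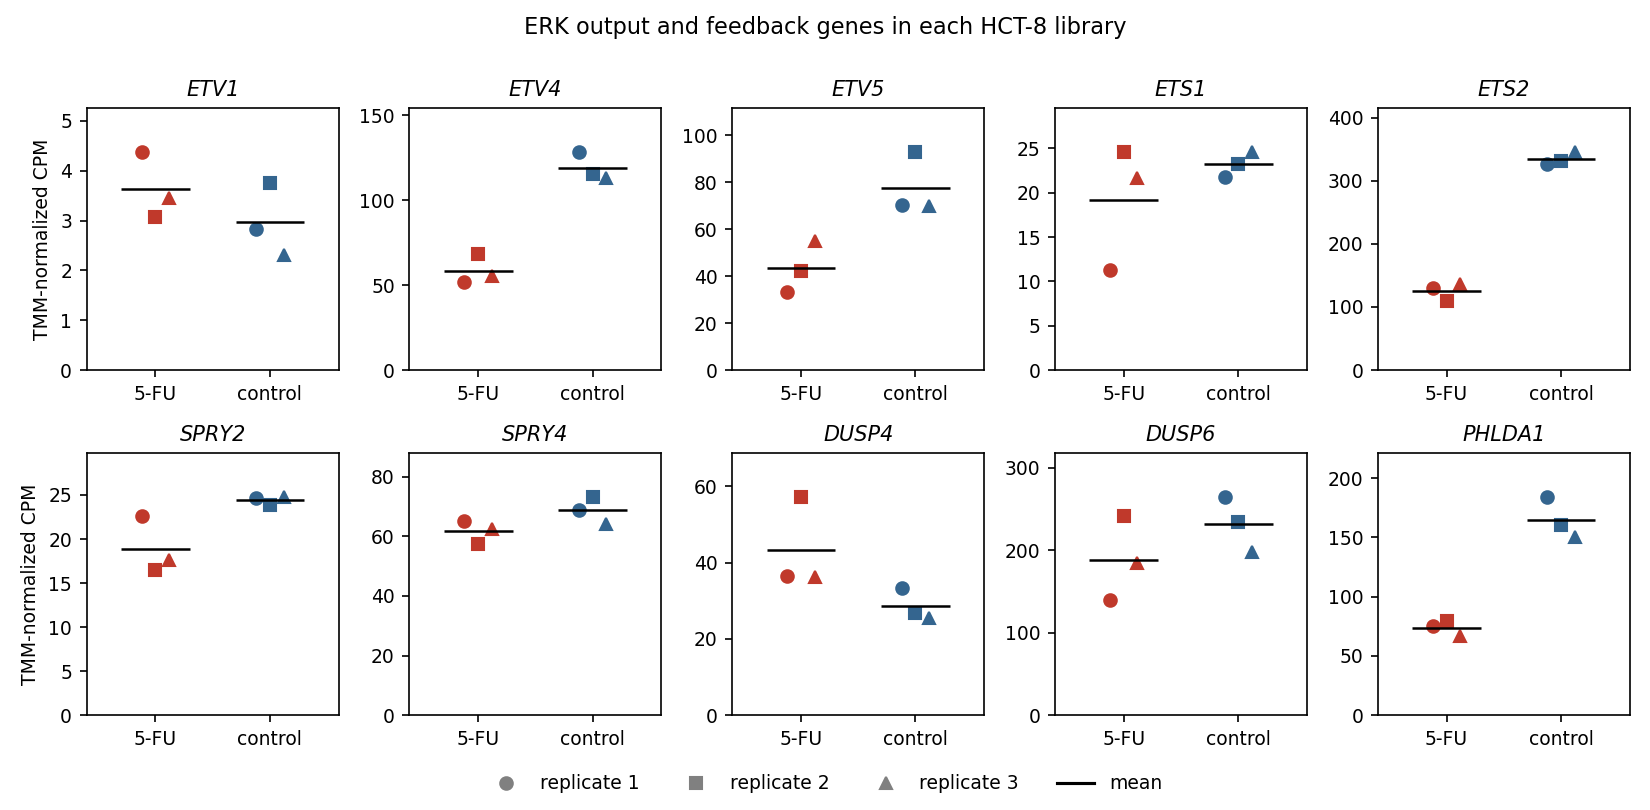
Each panel plots the TMM-normalized CPM of 1 gene in every library, with the 3 5-FU libraries left and the 3 control libraries right, symbols for the replicate number and a line at the group mean. The groups stand apart in ETV4, ETV5, ETS2, SPRY2, DUSP4 and PHLDA1 and overlap in ETV1, ETS1, SPRY4 and DUSP6.

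Of the PEA3 factors, activators with nearly the same DNA-binding domain, ETV4 had 51.7, 68.1 and 55.5 CPM in 5-FU replicates 1 to 3, against 128, 115 and 113 CPM in control replicates 1 to 3. Every 5-FU library lay below every control library, and the highest 5-FU value, in replicate 2, was still well under the lowest control value. The means were 58.4 ± 8.56 CPM in 5-FU and 118.9 ± 8.24 CPM in control cells (SD, n = 3 each), a log2 fold change of -1.03 (SE 0.13, edgeR adjusted p = 3.49e-05). ETV5 had 33.2, 42.1 and 55.2 CPM in 5-FU libraries and 70.1, 92.9 and 69.7 CPM in control libraries. These groups also stood apart, though ETV5 varied more within each, with a log2 fold change of -0.83 (SE 0.18, edgeR adjusted p = 0.00162). ETV1 had only 86, 59 and 73 counts in 5-FU libraries and 63, 83 and 47 in control libraries, or 4.38, 3.08 and 3.46 CPM against 2.83, 3.75 and 2.32 CPM. The groups overlapped, and the log2 fold change of 0.29 had a 95% interval of -0.27 to 0.85 (edgeR adjusted p = 0.321), so a change of the size seen in ETV4 lay outside it. ETV4 (ENSG00000175832) lies on chromosome 17 at 43527844 to 43579620, ETV5 (ENSG00000244405) on chromosome 3 at 186046308 to 186110318 and ETV1 (ENSG00000006468) on chromosome 7 at 13891228 to 13991425, all on the minus strand of GRCh38. Exons of the neighbouring genes DHX8 and DGKG cover 1.89% of the exonic bases of ETV4 and 2.83% of those of ETV5.

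ETS2, a broadly expressed ETS activator that ERK phosphorylates, fell furthest of the members. It had 129.8, 109 and 137 CPM in 5-FU replicates 1 to 3, against 327, 332 and 346 CPM in control replicates 1 to 3. The control values lay close together and were each more than the sum of any pair of 5-FU values. Means were 125 ± 14.2 CPM in 5-FU and 335 ± 9.91 CPM in control cells (SD, n = 3 each), with a log2 fold change of -1.42 (SE 0.13, edgeR adjusted p = 4.07e-06), lower than that of all but 8.36% of tested genes. Its paralog ETS1 had 11.3, 24.6 and 21.6 CPM in 5-FU libraries and 21.8, 23.3 and 24.6 CPM in control libraries. 5-FU replicate 1 stood far below the control range, replicate 3 just under its lowest library, and replicate 2 level with its highest. The ETS1 log2 fold change of -0.28 (SE 0.23, edgeR adjusted p = 0.3002) was 0.010 without 5-FU replicate 1 (edgeR adjusted p = 0.952) and 0.076 with upper-quartile factors. ETS2 (ENSG00000157557) lies on chromosome 21 at 38805307 to 38824955 on the plus strand and ETS1 (ENSG00000134954) on chromosome 11 at 128458761 to 128587558 on the minus strand. In bulk RNA a lower level in every cell and a lower level in part of the cells cannot be told apart.

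Among the Sprouty genes, feedback inhibitors of receptor signalling, SPRY2 had 22.6, 16.5 and 17.6 CPM in 5-FU libraries and 24.7, 23.9 and 24.8 CPM in control libraries. The 5-FU values were all lower, with replicate 1 close to the control range, with a log2 fold change of -0.37 (SE 0.15, edgeR adjusted p = 0.0381). That call was lost in 7 of 17 alternatives, among them upper-quartile factors (log2 fold change -0.0093, edgeR adjusted p = 0.9600) and the omission of 5-FU replicate 2 (-0.30, edgeR adjusted p = 0.121). SPRY4 had 65.0, 57.5 and 62.6 CPM in 5-FU libraries and 68.9, 73.2 and 64.0 CPM in control libraries. The ranges overlapped, and the log2 fold change was -0.15 with a 95% interval of -0.40 to 0.092 (edgeR adjusted p = 0.236), with the opposite sign under upper-quartile factors (0.20). On the FPKM table SPRY4 was called lower in all 3 settings, at -0.30 to -0.27 with limma adjusted p between 0.0317 and 0.0337. The median of all tested genes was itself -0.20 for log2(FPKM + 1) and -0.24 for log2(FPKM + 0.1) with the FPKM filter, and 0.044 without it. SPRY2 (ENSG00000136158) lies on chromosome 13 at 80335976 to 80340951 and SPRY4 (ENSG00000187678) on chromosome 5 at 142310427 to 142326455, both on the minus strand, and neither shares exonic bases with another annotated gene.

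The phosphatases differed from each other. DUSP4 had 36.5, 57.2 and 36.2 CPM in 5-FU libraries and 33.4, 26.7 and 25.5 CPM in control libraries. All 5-FU values were higher, but replicates 1 and 3 only just exceeded control replicate 1, and replicate 2 stood above the rest. DUSP4 thus had a log2 fold change of 0.60 (SE 0.19, edgeR adjusted p = 0.0126). The call was lost without 5-FU replicate 2 (log2 fold change 0.34, edgeR adjusted p = 0.0861), on omitting control replicate 3 (0.49, edgeR adjusted p = 0.0664), in DESeq2 (0.46, DESeq2 adjusted p = 0.0645) and on the FPKM table. DUSP6, the phosphatase most specific for ERK, had 139, 242 and 184 CPM in 5-FU libraries and 264, 234 and 198 CPM in control libraries. The 5-FU libraries spread widely, with replicate 2 inside the control range, and the log2 fold change of -0.30 had a 95% interval of -0.71 to 0.11 (edgeR adjusted p = 0.1704). Without 5-FU replicate 2 it was -0.53 and passed (edgeR adjusted p = 0.0311), with no filter on low counts it passed too (-0.45, edgeR adjusted p = 0.00631), and with upper-quartile factors it was 0.050. With no filter the median of all members was also lower, at -0.48 against -0.34 in the main fit. The median of all tested genes was then 0.63, against 0.09 in the main fit, so the scale of the 2 fits differs. DUSP6 (ENSG00000139318) lies on chromosome 12 at 89347232 to 89353271 and DUSP4 (ENSG00000120875) on chromosome 8 at 29333064 to 29350668, both on the minus strand. Exons of an antisense gene, AC024909.2, cover 40.5% of the exonic bases of DUSP6; that gene had 2.70, 4.59 and 2.70 CPM in 5-FU libraries and 2.47, 2.30 and 4.10 CPM in control libraries, and whether counting used strand is not given, so reads in the shared stretch cannot be assigned.

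PHLDA1 had 75.6, 79.6 and 66.6 CPM in 5-FU libraries and 184, 160.2 and 150.4 CPM in control libraries. Both groups were tight and the lowest control library lay far above the highest 5-FU library. Means were 73.9 ± 6.65 CPM in 5-FU and 164.9 ± 17.4 CPM in control cells (SD, n = 3 each), a log2 fold change of -1.16 (SE 0.13, edgeR adjusted p = 1.25e-05). PHLDA1 (ENSG00000139289) lies on chromosome 12 at 76025447 to 76033932 on the minus strand. Exons of a pair of antisense genes cover 16.5% of its exonic bases and had 0 to 3 counts in any library.

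**Figure D2:**
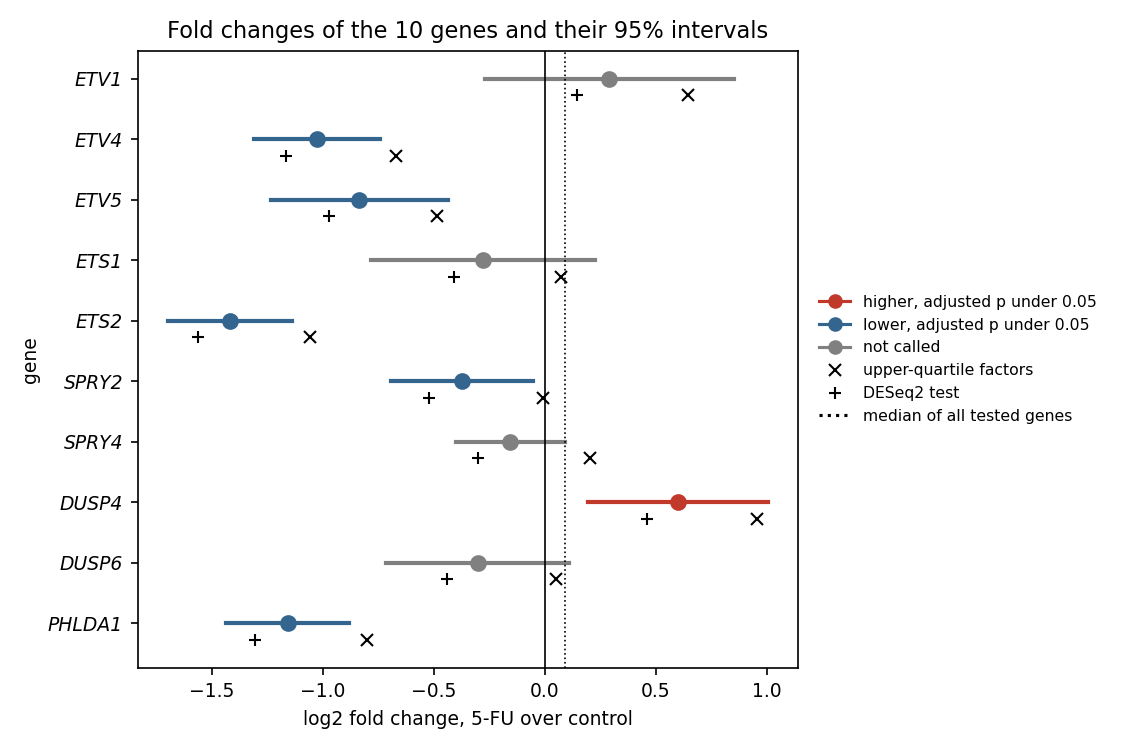
Points give the log2 fold change of 5-FU over control from edgeR, bars the 95% interval, crosses the value with upper-quartile factors and plus signs the DESeq2 value, with a dotted line at the median of all tested genes, 0.09. ETS2, PHLDA1, ETV4 and ETV5 lie left of 0 with every method drawn, DUSP4 lies right of 0, and ETS1, SPRY4 and DUSP6 change side with upper-quartile factors.

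The 4 clear decreases held in all 17 alternatives of test, scaling, filter and library. Across them the log2 fold change ranged from -1.57 to -1.06 for ETS2, from -1.31 to -0.80 for PHLDA1, from -1.17 to -0.67 for ETV4 and from -1.07 to -0.49 for ETV5, and the highest adjusted p of any was 0.0316, for ETV5.

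In level per gene length, read from the authors' deposited FPKM within each group, ETS2 and DUSP6 led in both groups and ETV1 came last. In 5-FU libraries the mean FPKM was 38.3 ± 11.4 for DUSP6, 25.6 ± 2.87 for ETS2, 15.2 ± 2.58 for ETV4 and 8.81 ± 0.396 for SPRY4, followed by PHLDA1, ETV5, SPRY2, DUSP4 and ETS1, with 0.354 ± 0.0534 for ETV1 (SD, n = 3 each). The ranges of DUSP6 and ETS2 overlapped in the 5-FU libraries, as did those of each pair of neighbours from SPRY4 down to DUSP4, so these positions are not separated by the spread between libraries. In control libraries the order was ETS2 with 75.7 ± 2.94 FPKM, DUSP6 with 51.97 ± 7.54, ETV4 with 34.2 ± 2.64 and PHLDA1 with 21.2 ± 2.35, then ETV5, SPRY4, SPRY2, DUSP4 and ETS1, with 0.319 ± 0.0726 FPKM for ETV1 (SD, n = 3 each). There the ranges of all neighbours stood apart. ETV1 was the only member under 1 FPKM in every library.

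**Figure D3:**
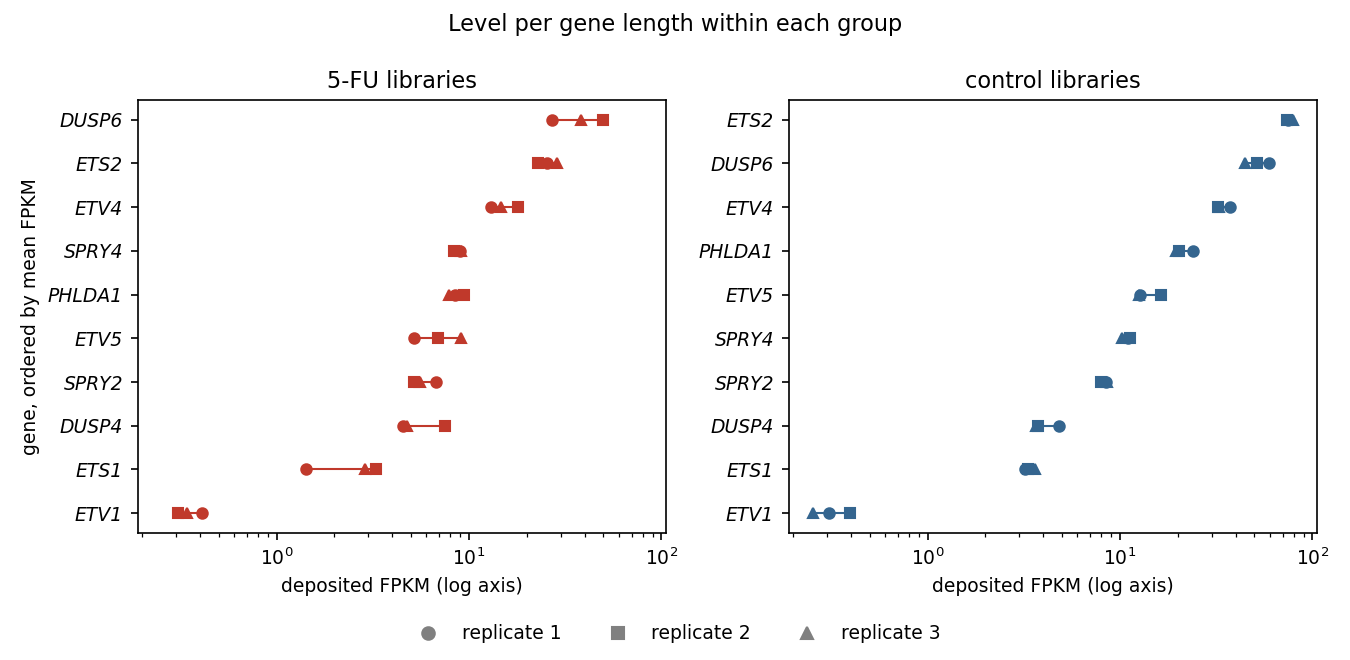
The deposited FPKM of each gene on a log axis, with genes ordered by the group mean, 5-FU libraries in the left panel and control libraries in the right, 1 symbol per replicate and a line over the range. ETS2 and DUSP6 change places between the panels, and neighbouring ranges overlap more in the 5-FU libraries.

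Ratios between related genes within a library do not depend on how libraries are scaled. The log2 ratio of ETS2 to ETS1 FPKM was 4.16, 2.79 and 3.30 in 5-FU replicates 1 to 3 and 4.55, 4.47 and 4.45 in control replicates 1 to 3. It was lower in every 5-FU library, by 1.07 on average, and the spread was wide in the 5-FU group (3.42 ± 0.695, against 4.49 ± 0.0489 in control; SD, n = 3 each; exact two-sided permutation p = 0.1, the smallest that 3 against 3 can give). The log2 ratio of DUSP6 to DUSP4 was 2.58, 2.73 and 2.99 in 5-FU libraries and 3.63, 3.78 and 3.60 in control libraries, again apart, with a difference of -0.91 (exact two-sided permutation p = 0.1). The ratio was lower in every 5-FU library, those in which DUSP4 itself was barely above control included. ETV4 made up 69.9%, 71.3% and 60.9% of the summed PEA3-group FPKM in 5-FU libraries and 74.2%, 66.1% and 71.9% in control libraries, which overlap (exact two-sided permutation p = 0.5). The log2 ratio of SPRY4 to SPRY2 was 0.42, 0.69 and 0.72 in 5-FU libraries and 0.37, 0.50 and 0.26 in control libraries, with overlap (exact two-sided permutation p = 0.2). With p-values adjusted over these 4 ratios none passes 0.05, which 3 libraries against 3 cannot reach.

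**Figure D4:**
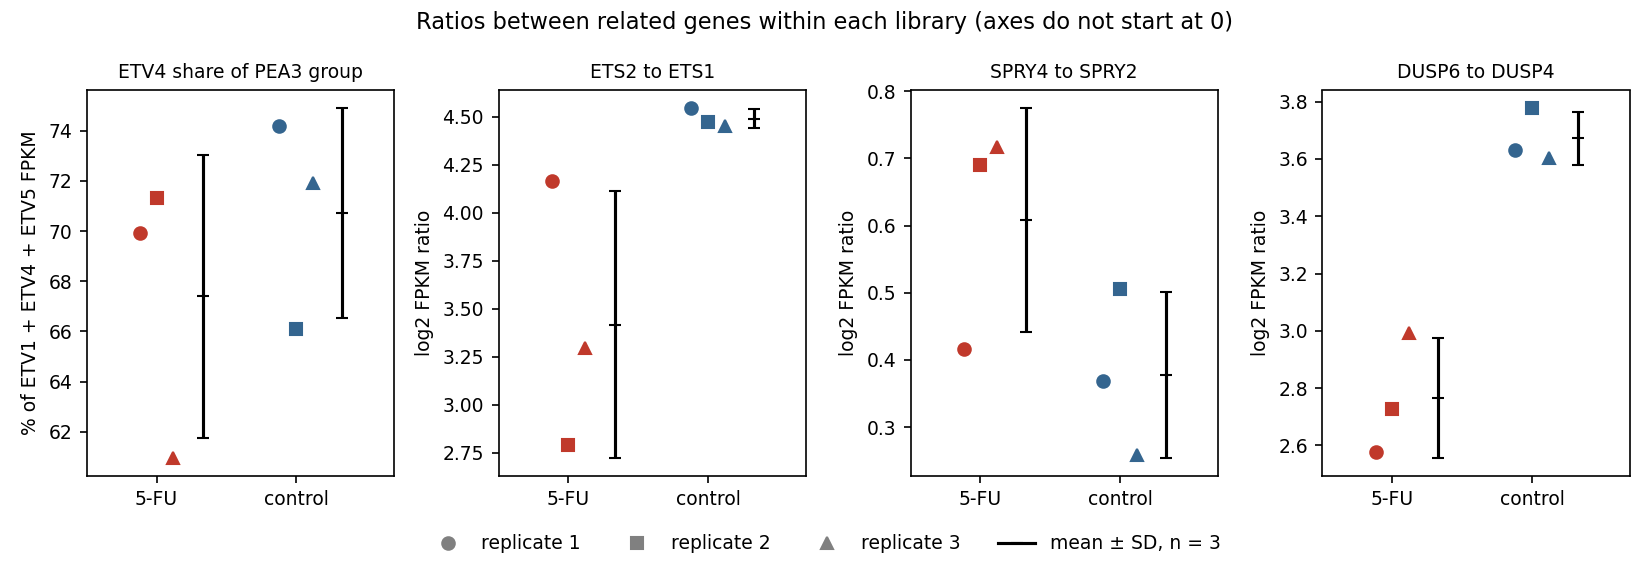
Each panel plots 1 ratio per library from the deposited FPKM, with 5-FU left and control right, symbols for the replicate number and bars for the mean and SD of 3 libraries; the axes do not start at 0. The ETS2 to ETS1 and DUSP6 to DUSP4 ratios of 5-FU libraries lie below all control libraries, and the other panels overlap.

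Within the 5-FU group the members did not deviate together. Replicate 2 held the highest value of 5 members, ETV4, ETS1, DUSP4, DUSP6 and PHLDA1, and the lowest of 4 others, ETV1, ETS2, SPRY2 and SPRY4. Replicate 1 held the lowest value of ETV4, ETV5, ETS1 and DUSP6. Over the 6 libraries the closest pair of members was ETV4 and PHLDA1, whose log2 CPM, each centred on its mean, differed by a root mean square of 0.12, and the farthest was ETS2 and DUSP4 with 1.06. Searched over 11418 protein-coding genes averaging 100 counts or more, the genes nearest to DUSP6 by this measure were SLC2A9 (0.065), BLOC1S2 (0.090) and TMEM173 (0.10). Those nearest to PHLDA1 were BLOC1S4 (0.044), AP4S1 (0.071) and FBXO27 (0.083), and those nearest to ETV1 were SEMA4G (0.058), REPS2 (0.081) and KLLN (0.093). The likeness covers 6 libraries in 2 groups and is a description.

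Genes of the wider pathway are given by list. Their counts in the main fit are to be read against the 33.9% lower and 36.3% higher among all tested genes. Among those in the CPM range of the members the shares were 46.3% and 26.5%. Counts under upper-quartile factors are to be read against 9602 higher and 4614 lower of all 19771 tested genes. No list was tested against other genes, and no list median was set against genes of like level. Of 9 regulators of PEA3 or ETS proteins and genes, 6 were lower and 2 higher, at a median log2 fold change of -0.47, with 4 lower and 3 higher under upper-quartile factors. DDB1, an adaptor of CUL4 ubiquitin ligases, averaged 180.0 ± 13.2 CPM in 5-FU and 459.9 ± 28.6 CPM in control cells, a log2 fold change of -1.35 (SE 0.13). COP1, the ligase component that marks PEA3 factors for destruction, had 13.2 ± 2.15 and 27.4 ± 3.85 CPM (-1.05, SE 0.16), and ERF, an ETS repressor that ERK moves out of the nucleus, had 42.7 ± 7.08 and 80.8 ± 12.7 CPM (-0.92, SE 0.15). FBXW7, a ubiquitin ligase subunit, was higher with 52.3 ± 5.94 and 27.3 ± 1.08 CPM (0.94, SE 0.12), as was DET1, a partner of COP1, with 6.14 ± 0.619 and 2.45 ± 0.572 CPM (1.32, SE 0.23), of whose exonic bases 36.0% are shared with another gene on its strand. Each pair of values gives 5-FU before control (SD, n = 3 each), and the edgeR adjusted p was between 5.04e-06 and 0.000375 for these 5 genes. CIC, named for its octamers and not by rank, was also among the lower genes. It had 87.9 ± 7.31 and 108.7 ± 11.2 CPM (-0.31, SE 0.12, edgeR adjusted p = 0.0399).

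Of the other 5 Sprouty and SPRED genes, 3 were higher and 2 lower. SPRED3, a SPRED-family inhibitor of RAS signalling, averaged 25.1 ± 5.33 CPM in 5-FU and 8.13 ± 2.34 CPM in control cells (log2 fold change 1.62, SE 0.22), and SPRY1 (0.95, SE 0.15) and SPRY3 (1.13, SE 0.26) were higher too. SPRED1 (-0.42, SE 0.12) and SPRED2 (-0.44, SE 0.12) were lower, calls that were both lost under upper-quartile factors. Of 8 other MAP kinase phosphatases 4 were higher and 3 lower, also under upper-quartile factors. DUSP1, which acts on p38 and JNK as well as ERK, averaged 39.99 ± 9.73 CPM in 5-FU and 9.92 ± 0.675 CPM in control cells (2.01, SE 0.18). DUSP8 had 41.3 ± 7.54 and 10.4 ± 2.17 CPM (1.99, SE 0.18), and DUSP5, the nuclear phosphatase specific for ERK, had 103 ± 13.1 and 46.6 ± 5.65 CPM (1.15, SE 0.13). DUSP16 (-0.92, SE 0.11), DUSP7 (-0.85, SE 0.15) and the little-expressed DUSP9 (-2.22, SE 0.31) were lower. The edgeR adjusted p lay between 4.22e-06 and 0.00742 for these genes.

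Of 23 tested transcripts otherwise used as readouts of ERK, 7 were higher, 5 lower and 11 not called, at a median of 0.05, with 10 higher and 4 lower under upper-quartile factors. MYC, a growth-promoting transcription factor, averaged 64.3 ± 13.4 CPM in 5-FU and 200.03 ± 9.57 CPM in control cells (log2 fold change -1.64, SE 0.15), the stress-response gene IER3 had 70.9 ± 16.4 and 216 ± 18.6 CPM (-1.61, SE 0.17), and PHLDA2, a relative of PHLDA1, had 34.6 ± 6.48 and 105 ± 20.1 CPM (-1.60, SE 0.17). HBEGF, a ligand of the EGF receptor, was higher with 22.2 ± 1.91 and 10.7 ± 2.74 CPM (1.05, SE 0.19), and so was the early growth response factor EGR3 with 8.50 ± 2.75 and 2.65 ± 0.633 CPM (1.67, SE 0.28). EPHA4, an ephrin receptor, had 12, 10 and 27 counts in 5-FU libraries and 1, 2 and 3 in control libraries. It is among the 7 called higher, but these counts are too few to give the size of the change. The edgeR adjusted p was between 4.44e-06 and 0.000688 for these 6 genes.

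In the cascade that leads to ERK, 17 of 25 genes were lower, 3 higher and 5 not called, at a median log2 fold change of -0.49, against 33.9% lower and 36.3% higher among all tested genes. With upper-quartile factors 10 were lower and 6 higher, against 4614 lower and 9602 higher of all 19771 tested genes. The count thus depends on the scaling, as does the share among all genes. PEBP1, an inhibitor of RAF, averaged 142 ± 23.1 CPM in 5-FU and 417 ± 13.1 CPM in control cells (log2 fold change -1.55, SE 0.14). NRAS, a RAS GTPase, had 43.7 ± 9.55 and 126 ± 7.48 CPM (-1.53, SE 0.16), and the adaptor GRB2 had 83.5 ± 7.54 and 199 ± 8.76 CPM (-1.26, SE 0.12). The scaffold KSR1 was higher with 46.7 ± 6.72 and 16.9 ± 0.709 CPM (1.46, SE 0.14), as were the docking protein GAB1 (0.63, SE 0.18) and the GTPase activator RASA2 (0.61, SE 0.14). Of 13 tested kinases and factors that ERK acts on, 8 were lower and 2 higher, at a median of -0.54 against 0.09 over all tested genes, with 6 lower and 2 higher under upper-quartile factors. ELK1, an ETS factor that ERK phosphorylates, had 32.8 ± 6.70 and 80.6 ± 4.49 CPM (-1.29, SE 0.15), and RPS6KA4, a nuclear kinase, had 66.996 ± 3.99 and 139 ± 23.8 CPM (-1.06, SE 0.14). ELK4 was lower too (-0.67, SE 0.11). MKNK1, a kinase of the translation factor eIF4E, was higher with 89.5 ± 12.8 and 41.6 ± 5.97 CPM (1.11, SE 0.14), and so was the SRF coactivator MRTFA (0.38, SE 0.12). The call of MRTFA was lost in 8 of 17 alternatives, with an adjusted p of up to 0.235, and that of GAB1 in 3 of 17, all on FPKM, with an adjusted p of up to 0.167. The edgeR adjusted p was between 4.35e-06 and 0.0140 for the genes named, and pairs of values are 5-FU before control (SD, n = 3 each).

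**Figure D5:**
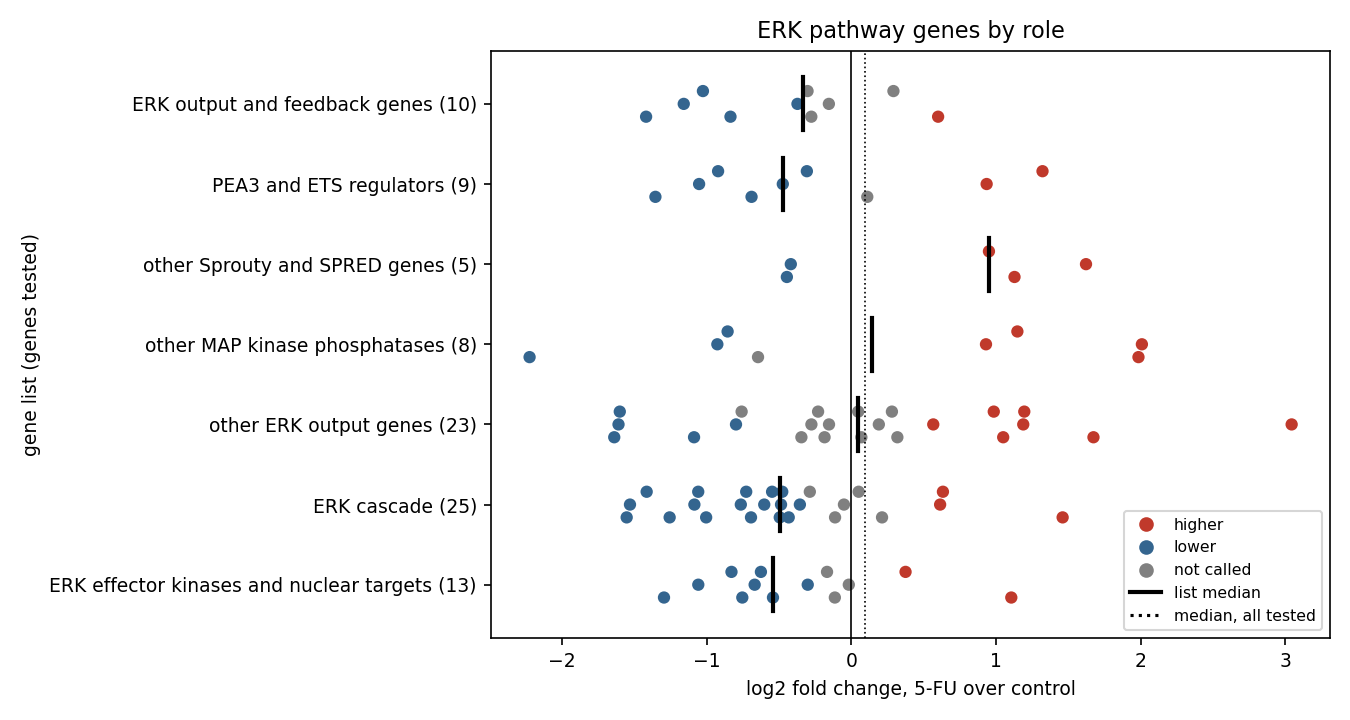
Each point is the log2 fold change of 1 tested gene, 5-FU over control, in a row per list, coloured by its call, with a bar at the list median and a dotted line at the median of all tested genes, 0.09. The cascade and the genes ERK acts on have medians of -0.49 and -0.54, and every list drawn spans both sides of 0.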

How the data were processed

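RNA from HCT-8 cells was sequenced in 6 libraries, grouped by the treatment label. The build was GRCh38 and the tools were featureCounts 1.5.0-p3, HISAT2 2.0.5 and DESeq2 1.16.1, per the submitters' processing notes. How strand and multiply mapped reads were handled is not given in the sources used. The authors deposited whole-number counts per gene and a table of FPKM, which equals count over gene length and a constant per library of 1.07 to 1.16 times the count total in 5-FU and 0.892 to 0.986 times in control libraries. All 58735 positions equal those of GENCODE 29. Within a group, chi-square per gene between library pairs was 10.2 to 26.5, so none was treated as a duplicate.

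The counts were tested with edgeR 4.0.16 in R 4.3.3 (TMM, filterByExpr, quasi-likelihood, Benjamini-Hochberg over all 19771 tested genes), on group alone. The edgeR test was tested on simulated data. The SE is the size of the unshrunk coefficient over the root of F. Alternatives were other scalings, filters and tests (DESeq2 1.42.0, limma 3.58.1), the replicate number as a block, each library left out, and limma on log2(FPKM + 1) or log2(FPKM + 0.1). The members, lists and tests were chosen with earlier results of these data known. Named genes are all members and, per list, up to 3 called genes of smallest p in each direction, or the most abundant for markers.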

Additional observations from a re-analysis of the deposited data

How the results depend on the processing

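With upper-quartile factors the member median was 0.021 and ETS1 (0.076), SPRY4 (0.20), DUSP6 (0.050) and KRT19 (0.020) turned positive, none of them called there or in the main comparison. That scaling moved the median of all tested genes by construction, to 0.45. Measured from the median of each fit, ETS1 lay at -0.37, SPRY4 at -0.25 and DUSP6 at -0.40 with TMM and with upper-quartile factors alike. A change of scaling shifts all genes by about the same amount, so these distances could hardly differ and are no separate result. With genes of a mean count of at least 50 the member median was -0.087 and that of all tested genes 0.018. There ETS1 was -0.030, SPRY4 0.096 and DUSP6 -0.054, none of them called. With libraries left out in turn ETS1 ranged from -0.50 (without 5-FU replicate 2) to 0.010 (without 5-FU replicate 1). The count of members higher was 0 in DESeq2 and in each of the 3 FPKM settings, and 0 to 1 over the libraries left out; DUSP4 is the gene concerned. The count of members lower was 4 to 7 over all alternatives, 7 without the low-count filter, where ETS1 and DUSP6 passed. The cause of these shifts was not tested. ETV1 has no value where genes under 1 FPKM were removed. Equal replicate numbers did not pair the libraries: deviations of same-numbered libraries correlated at -0.072, -0.20 and 0.060. With the replicate number as a block 4 members were lower, since SPRY2 gave an edgeR adjusted p of 0.0502, 1 was higher, and 13243 genes were called in all, against 13877 without it; the sign-flip p of each ratio could not go below 0.25 with 3 pairs. The 4 ratio differences kept their sign in every alternative, but the difference in ETV4 share, -3.33 points, was -0.10 without 5-FU replicate 3, -1.59 without control replicate 1 and -5.65 without control replicate 2. Low counts limit ETV1 in particular.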
